A study of Mus musculus with 3 samples.

Results

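The genes of the mitochondrial ribosomal proteins were measured in whole mouse embryos at stage E8.75, when the heart has formed and somites are being added. Each of 3 Agilent arrays, called pairs 1 to 3, compared RNA of a wild-type embryo (Cy3) with RNA of a Brpf1-deficient embryo (Cy5). The embryos were untreated, and neither the Brpf1 allele nor the number of embryos behind an RNA is given in the labels, so p-values measure the spread between these 3 pairs. Because Cy5 marked the same genotype on every array, dye and genotype cannot be told apart, and each direction is stated by channel. Brpf1 encodes a scaffold of histone acetyltransferase complexes. Members were all non-control probes whose gene symbol is Mrpl or Mrps followed by a number and at most 1 letter, which took 105 probes of 78 genes out of 55681 probes, 49 genes named for the large and 29 for the small subunit. Of these, 77 genes (48 large, 29 small) passed the filter on dim probes and were among the 23551 genes and other transcripts tested. Ratios are given as log2 of Cy5 over Cy3, which makes them positive where, after normalization, the channel labelled Brpf1-deficient was brighter.

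Mitochondria carry their own ribosome, which translates the few proteins encoded in mitochondrial DNA, all of them subunits of the respiratory chain and ATP synthase. Its RNAs come from the mitochondrial genome, while its proteins are encoded in the nucleus, made in the cytosol and imported, so building one ribosome needs many nuclear genes at once. A part of these proteins descends from bacterial ribosomal proteins, and the rest was added in mitochondria. In mouse and human cells the promoters of mitochondrial protein genes are known for sites of NRF1, of ETS factors such as GABPA, and of YY1.

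RefSeq promoter sequences (GRCm38.p6) were at hand for 69 of the 78 genes, 43 large and 26 small, each from 250 bases before to 50 bases after an annotated start. The letters CCGGAAGT, a core that GABPA and other ETS factors bind, were present on either strand in 12 of the 69 genes (17.4%) and in 4.31% of all 27025 genes with a promoter sequence. GCGCATGCG, from the core of NRF1 sites, was found in 7 members (10.1%, against 1.95% of all genes), and AAGATGGCG, from that of YY1 sites, in 8 members (11.6%, against 1.64%). Motifs were searched separately, without regard to overlap, and 26 of the 69 members held at least 1 (37.7%, against 7.48% of all genes). The set of all genes was not matched to the members in base composition or type of gene. Whether other promoters of like composition hold these letters as often was not tested. The 120 bases upstream of the start are printed for 6 members because they join the searched letters to the range of the array ratios. Mrpl9 and Mrpl32 hold the NRF1 letters and lie toward opposite ends of that range, Mrpl27 and Mrps22 hold the ETS letters, and Mrpl12 and Mrps36 are the members with the highest and the lowest ratio. Capitals mark the searched letters, on either strand (a run of 10 is 2 overlapping NRF1 matches, 1 on each strand), and each sequence runs 5′ to 3′ along the strand of its gene.
Mrpl9 (chr3:94443216-94443335, plus strand): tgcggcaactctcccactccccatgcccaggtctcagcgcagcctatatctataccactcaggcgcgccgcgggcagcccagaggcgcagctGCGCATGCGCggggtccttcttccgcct
Mrpl32 (chr13:14613038-14613157, minus strand): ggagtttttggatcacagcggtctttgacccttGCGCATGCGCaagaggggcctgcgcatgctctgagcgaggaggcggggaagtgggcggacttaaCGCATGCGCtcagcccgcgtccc
Mrpl27 (chr11:94653671-94653790, plus strand): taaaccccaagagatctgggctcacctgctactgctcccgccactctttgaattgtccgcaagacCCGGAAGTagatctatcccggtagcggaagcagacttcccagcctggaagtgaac
Mrps22 (chr9:98601680-98601799, minus strand): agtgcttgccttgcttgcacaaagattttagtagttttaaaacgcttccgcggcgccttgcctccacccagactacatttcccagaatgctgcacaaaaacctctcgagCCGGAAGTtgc
Mrpl12 (chr11:120484517-120484636, plus strand): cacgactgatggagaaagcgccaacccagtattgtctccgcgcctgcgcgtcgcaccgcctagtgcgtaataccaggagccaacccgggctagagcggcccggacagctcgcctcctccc
Mrps36 (chr13:100744660-100744779, minus strand): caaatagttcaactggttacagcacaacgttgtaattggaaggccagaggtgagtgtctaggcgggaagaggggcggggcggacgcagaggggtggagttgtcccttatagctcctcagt
Mrpl12 and Mrps36 held none of the 3 motifs in these bases, which says only that these letters are not there. The median log2 ratio was -0.053 over the 12 tested members with the ETS letters and -0.031 over the 56 without. It was -0.012 over the 7 with the NRF1 letters and -0.039 over the other 61, and 0.0051 over the 8 with the YY1 letters and -0.040 over the other 60. For NRF1 and YY1 the form searched first had 1 more base and was shortened after its counts were seen. The longer NRF1 letters were found in 3 members (4.35%, against 1.07% of all genes), with a median ratio of -0.12. The longer YY1 letters were found in 5 (7.25%, against 0.995%), with a median ratio of 0.071. These differences were not tested.

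None of the 77 members passed the threshold of an adjusted p below 0.05 (limma, Benjamini-Hochberg over all genes tested), in either direction. Over all 23551 genes and transcripts 1.38% passed, 1.29% higher and 0.0934% lower in Cy5. At an unadjusted p below 0.05 there were 3 members, Mrpl12 higher and Mrps36 and Mrps14 lower, against 17.3% of all genes (8.23% higher, 9.12% lower). The ratios of the members spanned -0.26 to 0.23, with a median of -0.033, and their middle part between the 25th and 75th percentiles ran from -0.087 to 0.064. All 77 lay within 0.3 of 0 on the log2 scale, as did 92.5% of 2600 other named genes of like brightness. These were taken between the 10th and 90th percentiles of the members' mean log2 intensity (13.6 to 15.5). Of these 2600 genes only 1 passed the limma threshold higher and 2 lower, so calls were rare at this brightness. At an unadjusted limma p below 0.05, 47 of them were higher and 295 lower. Within 0.1 of 0 lay 52 members (67.5%), against 45.0% of those other genes. The median of the other genes was -0.080, farther from 0 than that of the members, so these shares mix offset with spread. The distance between the 25th and 75th percentiles was 0.151 for the members and 0.184 for the other genes. The 95% interval of the ratio stayed between -0.5 and 0.5 for 76 of the 77 members, the exception being Mrpl50 (-0.23 to 0.502), and for 83.8% of the other genes.

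The spread between pairs was narrow for these genes. The SD over the 3 pairs had a median of 0.079 over the members, 0.115 over the 2600 other genes of like brightness and 0.159 over all genes. The limma fit moderates each gene's spread toward a common SD of 0.17, and 74 of the 77 members had an SD below that value. Their moderated standard errors (SE, median 0.082) are therefore larger than their own spread alone would give. Both channels were measured well above background on all 3 arrays for each of the 77 members, and no member spot was saturated. The 78th gene, Mrpl21, which encodes a large subunit protein, was not well above background in either channel on any array. Its single probe had a median spot intensity of 84, 91.5 and 75 in Cy3 and of 151, 150.5 and 107.5 in Cy5.

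**Figure D1:**
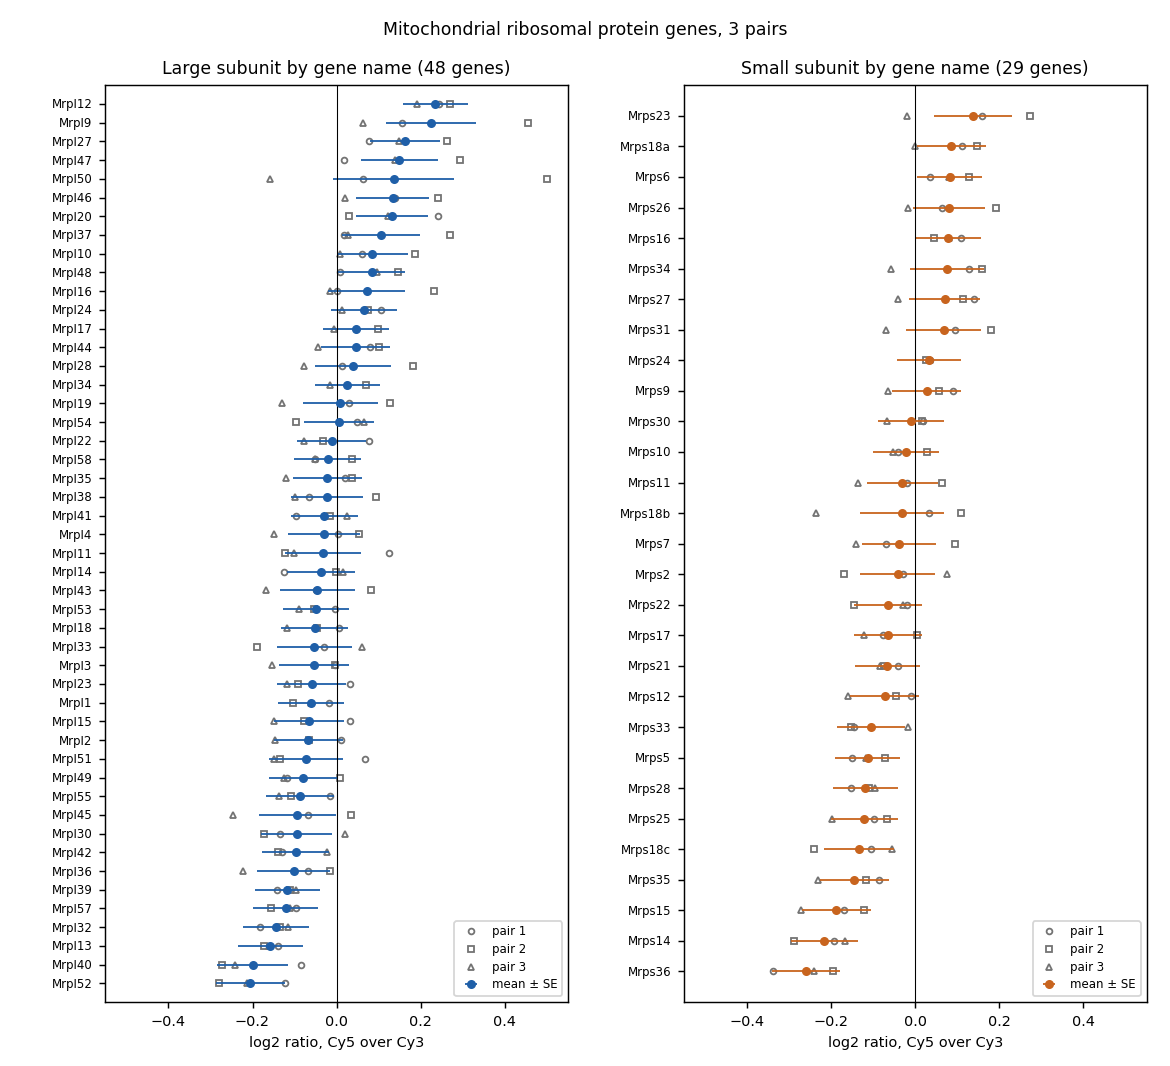
Log2 ratio of Cy5 over Cy3 (horizontal axis) of the 48 large and 29 small subunit genes that were tested. Open symbols are the 3 pairs, filled points the mean with its moderated SE; all means lie between -0.26 (Mrps36) and 0.23 (Mrpl12), and the single pair value farthest from 0 is that of Mrpl50 in pair 2 (0.50).

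Among the large subunit genes the highest mean belonged to Mrpl12, which encodes the protein of the flexible stalk that receives translation factors. In pairs 1, 2 and 3 its spots read 34960, 39988.5 and 35287 in Cy3 (median spot intensity) against 99560, 73014.5 and 83276 in Cy5. Before normalization Cy5 was the brighter channel for all 77 members in every pair, as it was for 99.3%, 82.1% and 98.8% of all genes, so the ratios rest on the loess curve that removes this offset within each array. After it, the log2 ratio of Mrpl12 was 0.24, 0.27 and 0.19, above 0 in all pairs, with a mean of 0.23 ± 0.08 (SE, n = 3 pairs; 95% interval 0.035 to 0.43; limma adjusted p = 0.246), a fold of 1.18. The other stalk and stalk base genes lay nearer to 0, with Mrpl10, the anchor of the stalk, at 0.085 ± 0.08, Mrpl11 of the stalk base at -0.033 ± 0.09 and Mrpl53 at -0.049 ± 0.08. Mrpl12 and Mrpl10 were above 0 in all 3 pairs, Mrpl53 was below 0 in all 3, and Mrpl11 was above 0 in pair 1 only (0.12, -0.12 and -0.10).

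Mrpl9, which encodes a relative of the bacterial protein L9, had ratios of 0.15, 0.45 and 0.062 and a mean of 0.22 ± 0.11 (adjusted p = 0.351). Pair 2 was well above the other pairs for this gene. Mrpl27, whose bacterial relative reaches toward the peptidyl transferase centre, had 0.078, 0.26 and 0.15 (mean 0.16 ± 0.08). A second Mrpl27 probe of nearly the same brightness gave -0.096, 0.052 and -0.095, and the mean of both probes was 0.058. Mrpl47 of the exit tunnel rim had 0.017, 0.29 and 0.14 (mean 0.15 ± 0.09). Mrpl46, a protein of the central protuberance, had 0.14, 0.24 and 0.019 (mean 0.13 ± 0.09). In Mrpl9, Mrpl27, Mrpl47 and Mrpl46 pair 2 gave the highest of the 3 values. Mrpl20, the brightest member with a mean log2 intensity of 16.2, had 0.24, 0.029 and 0.12, and there pair 2 was the lowest (mean 0.13 ± 0.09).

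At the other end of the large subunit were Mrpl52 and Mrpl40, both proteins that bacterial ribosomes lack. Mrpl52 had ratios of -0.12, -0.28 and -0.21 and a mean of -0.21 ± 0.08 (SE, adjusted p = 0.293), from intensities of 30059, 38588 and 30229.5 in Cy3 and 63095, 46072 and 51755.5 in Cy5. Mrpl40 of the central protuberance had -0.085, -0.27 and -0.24 (mean -0.20 ± 0.08, adjusted p = 0.315). Mrpl13, a relative of bacterial L13, had -0.14, -0.17 and -0.16, one of the closest agreements between pairs (SD 0.017, mean -0.16 ± 0.08). Mrpl32, whose maturation by a mitochondrial protease is a step of ribosome assembly, had -0.18, -0.13 and -0.12 (mean -0.14 ± 0.08), and Mrpl57 had -0.097, -0.16 and -0.11 (mean -0.12 ± 0.08). Nearest to 0 were Mrpl54 (0.0058 ± 0.08) and Mrpl19 (0.0090 ± 0.09), each with pairs on both sides of 0. The dimmest tested member, Mrpl35, had intensities of 1036.5, 1109 and 978 in Cy3 and a ratio of -0.022 ± 0.08.

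Among the small subunit genes the lowest mean was that of Mrps36, which is named for the ribosome but whose product is now counted with the 2-oxoglutarate dehydrogenase complex. Its spots read 21896, 21574.5 and 19778 in Cy3 against 36955, 24477 and 31294 in Cy5, and its log2 ratio was -0.34, -0.20 and -0.24. All 3 pairs were below 0, with a mean of -0.26 ± 0.08 (SE, n = 3; 95% interval -0.47 to -0.051; limma adjusted p = 0.229). A second Mrps36 probe of similar brightness gave -0.19. Mrps14, a relative of bacterial S14 in the head of the subunit, had -0.19, -0.29 and -0.17 (mean -0.22 ± 0.08, adjusted p = 0.274), but its dimmer second probe lay above 0 in all pairs, at 0.14, 0.32 and 0.086.

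Mrps15 had ratios of -0.17, -0.12 and -0.27 (mean -0.19 ± 0.08, adjusted p = 0.321) and was the brightest small subunit gene, with a mean log2 intensity of 15.6. Mrps35, a protein without a bacterial relative, had -0.085, -0.12 and -0.23 (mean -0.14 ± 0.08). Only 3 small subunit genes had ratios above 0 in all 3 pairs, and all were small: Mrps6 at 0.082 ± 0.08, Mrps16 at 0.078 ± 0.08 and Mrps24 at 0.032 ± 0.08. Mrps24 gave nearly the same value in each pair, 0.036, 0.025 and 0.036. Mrps23 had the highest small subunit mean, 0.14 ± 0.09, with pairs at 0.16, 0.27 and -0.020, and its second probe gave a mean of -0.011. Nearest to 0 were Mrps30 (-0.010 ± 0.08) and Mrps10 (-0.022 ± 0.08), and Mrps27, a pentatricopeptide repeat protein and the dimmest small subunit gene, had 0.071 ± 0.08.

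The 3 Mrps18 paralogues descend from the gene of 1 bacterial protein, S18, and occupy different places in the mitochondrial ribosome. Mrps18c, which sits where S18 does, had ratios of -0.11, -0.24 and -0.056 (mean -0.13 ± 0.08, SE). Mrps18a, whose protein lies in the large subunit despite its name, had 0.11, 0.15 and -0.0013 (mean 0.086 ± 0.08). Mrps18b had 0.032, 0.11 and -0.24 (mean -0.032 ± 0.10), the widest spread of the 3 genes. In every pair Mrps18a was above Mrps18c, and Mrps18b lay between them in pairs 1 and 2 and below both in pair 3. None of the 3 passed the threshold.

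The medians of large and small subunit genes differed by less than either moved between pairs. The median ratio of the 48 large subunit genes was 0.0069, 0.0032 and -0.084 in pairs 1, 2 and 3, and that of the 29 small subunit genes was -0.020, 0.017 and -0.067. The difference of the medians, large minus small, was 0.027, -0.014 and -0.017, so that its sign changed between pairs, and that of the gene means was 0.0068. Above 0 were 18 of the 48 large and 10 of the 29 small subunit genes by their mean. In pair 3 both subunits were lower, with 15 large and 4 small subunit genes above 0, against 27 and 12 in pair 1 and 24 and 16 in pair 2. The direction of either median depended on the scaling, since both were above 0 with a loess span of 0.02 (0.035 large, 0.025 small), with processed signals (0.030 and 0.0047) and with median centring (0.13 and 0.083). Counting Mrps18a and Mrps30 with the large subunit, where their proteins lie, and leaving out Mrps36 gave -0.030 for 50 large and -0.040 for 26 small subunit genes.

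**Figure D2:**
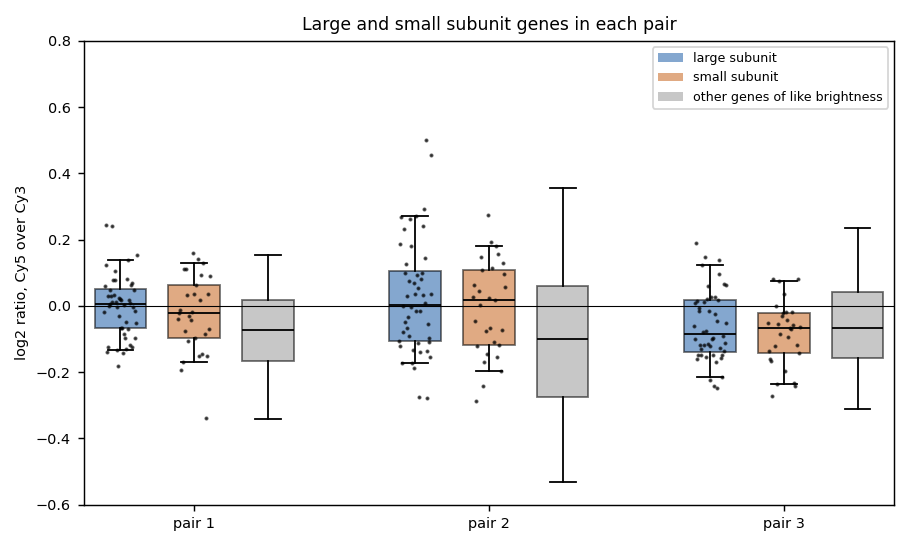
Log2 ratio of Cy5 over Cy3 in each pair for large subunit genes (blue, 48), small subunit genes (orange, 29) and 2600 other named genes of like brightness (grey). Boxes span the quartiles with the median, whiskers the 5th to 95th percentiles, and points are single members; the medians of both subunits lie between -0.084 and 0.017 in all pairs.

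Genes were also grouped by descent and place. Proteins with a bacterial relative had a median of -0.031 over 29 large and of -0.053 over 16 small subunit genes, and those without one had -0.046 over 19 large and -0.010 over 11 small subunit genes. Mrps18a and Mrps18b were counted in neither class. The classes follow the gene names, so the 11 include Mrps36 (-0.26) and Mrps30. The protein of Mrps30 lies in the large subunit, and its value is the median of the 11. By place, 7 genes of the central protuberance had a median of -0.023 and ranged from -0.20 (Mrpl40) to 0.16 (Mrpl27). The 5 genes around the exit of the peptide tunnel ranged from -0.094 (Mrpl45, which ties the ribosome to the inner membrane) to 0.15 (Mrpl47), with a median of -0.011. Neighbours in the ribosome therefore lay on both sides of 0.

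The order of the members repeated in part from pair to pair, though no single member passed. Across the 77 members the log2 ratios correlated at 0.634 between pairs 1 and 2, at 0.514 between pairs 1 and 3 and at 0.412 between pairs 2 and 3. Across the 2600 other genes of like brightness the same correlations were 0.472, 0.242 and 0.129. These correlations run across genes that share arrays and dye orientation and are not independent replicates, and no test was made of them. Of the 77 members, 37 had the same sign in all pairs, 13 above and 24 below 0. That is 48.1%, against 43.4% of all genes (19.7% above and 23.8% below 0) and 49.7% of the other genes of like brightness. Mrpl50, a protein that bacterial ribosomes lack, differed most between pairs, with 0.063, 0.50 and -0.16 (mean 0.14 ± 0.14, SE), while its second probe of like brightness gave -0.057, -0.015 and -0.096.

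**Figure D3:**
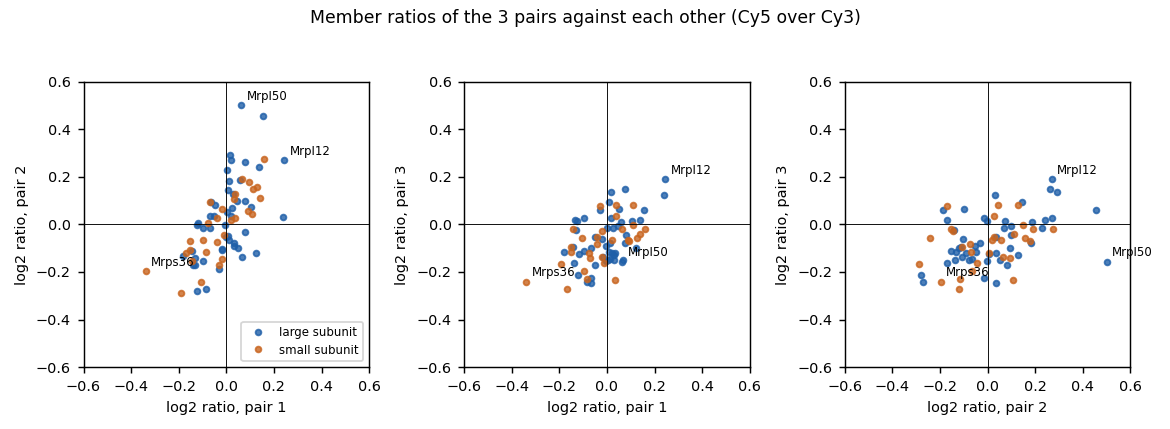
Log2 ratios (Cy5 over Cy3) of the 77 members in 1 pair against another, large subunit in blue and small subunit in orange, with 3 members named. Mrpl12 lies above and Mrps36 below 0 on every axis, while Mrpl50 is at 0.50 in pair 2 and -0.16 in pair 3.

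Nearly all members lay below the brightness at which ratios climbed on these arrays. Their mean log2 intensity over both channels ran from 10.3 to 16.2, with none above 17, where 544 genes had a median ratio of 0.75. Of 87 cytosolic ribosomal protein genes, whose products build the ribosome of the cytosol, 71 were above 17, and the median over all 87 was 0.85, with 55 higher and 0 lower in limma at the threshold (77 and 0 at an unadjusted p below 0.05). Only 5 cytosolic genes fell within the members' range of brightness, with a median of -0.046. Ribosomal genes of mitochondria and cytosol thus had different ratios on arrays where they also differed in brightness, and these cannot be told apart here; the difference itself was not tested. When the loess curve followed the brightness more closely, at a span of 0.02, the medians were 0.033 for the members and 0.097 for the cytosolic genes. Within classes of brightness, 37 members between 14 and 15 had a median of -0.011, against -0.078 for all 1698 genes of that class. The 22 members between 15 and 16 had -0.062, against -0.070 for 1075 genes. Between 16 and 17 the 750 genes of the class had a median of 0.11, and the 2 members there were Mrpl20 (0.13) and Mrpl51 (-0.072).

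**Figure D4:**
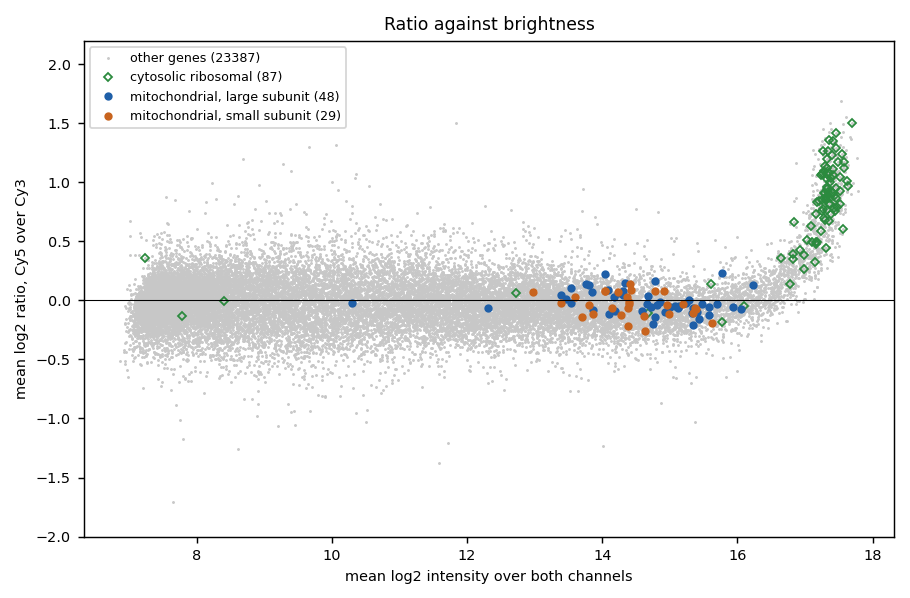
Mean log2 ratio of Cy5 over Cy3 (vertical axis) against mean log2 intensity over both channels (horizontal axis) for all 23551 genes and transcripts tested. The 77 mitochondrial ribosomal genes lie between 10.3 and 16.2 near a ratio of 0, while 71 of the 87 cytosolic ribosomal genes lie above 17, where ratios rise.

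For 25 members more than 1 probe was kept. Their 27 other probes lay above the brightest probe in 17 cases and below it in 10, with a median difference of 0.061. In 14 of the 25 genes the probes fell on both sides of 0, with the widest gap, 0.40, in Mrps14. The Mrps2 probe used, the brighter one, gave -0.042, while its second probe gave 0.12, 1.00 and -0.16 in pairs 1, 2 and 3 (mean 0.32). Mrpl47, with 4 probes, spanned -0.14 to 0.25. Mrpl22 had -0.011 from one probe and -0.25 from another of similar brightness, both named through the same transcript. Both probes of Mrpl40 (-0.20 and -0.19) and of Mrps17 (-0.065 and -0.067) differed by little.

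**Figure D5:**
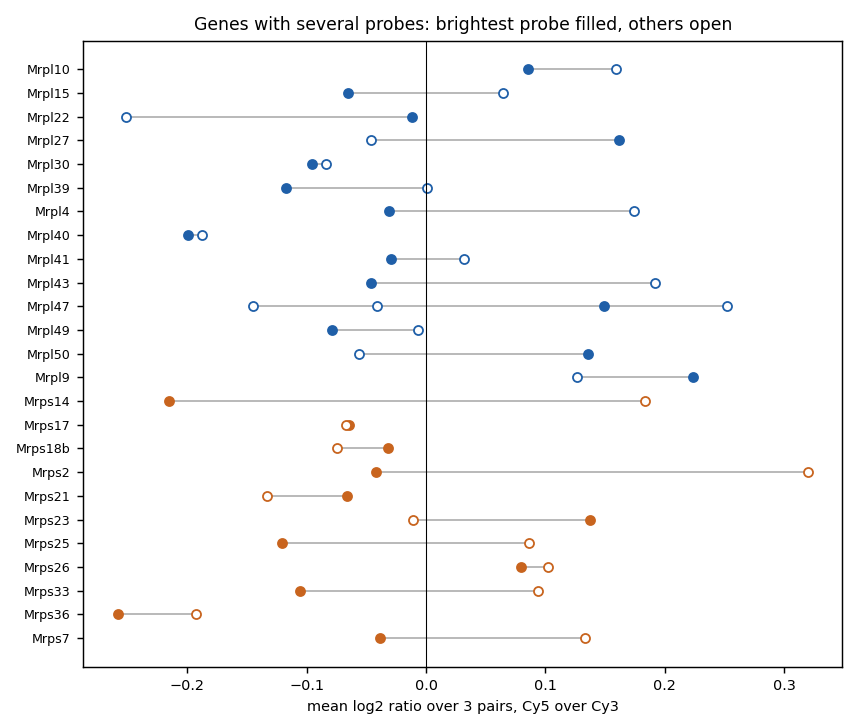
Mean log2 ratio of Cy5 over Cy3 over 3 pairs for each kept probe of the 25 members with several probes, the brightest probe filled and the others open, large subunit in blue and small subunit in orange. In 14 genes the probes lie on both sides of 0, with the widest gap, 0.40, in Mrps14.

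Other genes of mitochondrial translation gave no calls either. None passed the threshold in limma among 5 mitoribosomal proteins under other names (median -0.037), 29 assembly factors (-0.0013), 15 translation factors (0.0062), 21 aminoacyl-tRNA synthetases and amidation enzymes (-0.051) and 17 genes of mitochondrial transcription and DNA maintenance (-0.032). At an unadjusted p below 0.05 there were 0, 1, 1, 4 and 2 of them in that order, against 17.3% of all genes. Of the ribosomal proteins under other names, Dap3, a GTP-binding small subunit protein, had -0.090 ± 0.08 (SE), Aurkaip1 -0.055 ± 0.08 and Chchd1 0.076 ± 0.10. Mpv17l2, an inner membrane assembly factor, had 0.27, 0.26 and 0.20 (mean 0.25 ± 0.08, adjusted p = 0.232). The other assembly genes with the smallest p were the pseudouridine synthase family gene Pusl1 (0.21 ± 0.09) and Rcc1l (0.20 ± 0.09).

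Gfm2, the elongation factor G form that recycles mitochondrial ribosomes, had 0.26, 0.36 and 0.18 (mean 0.27 ± 0.08, adjusted p = 0.228), but the mean of all its kept probes was -0.0026. Taco1, an activator of COX1 translation, had 0.20 ± 0.08 and Mtfmt, which formylates the initiator tRNA, -0.18 ± 0.09. The mitochondrial synthetases for serine, Sars2 (0.27 ± 0.08, adjusted p = 0.209), and methionine, Mars2 (0.29 ± 0.09, adjusted p = 0.225), lay on the opposite side of 0 from that for histidine, Hars2 (-0.24 ± 0.08, adjusted p = 0.255). Of the transcription factors whose promoter letters are counted above, Nrf1 lay above 0 in all pairs, at 0.25, 0.068 and 0.26 (mean 0.19 ± 0.09, adjusted p = 0.332). The other two lay below 0 in all pairs: Yy1 had -0.17, -0.27 and -0.23 (mean -0.22 ± 0.08, adjusted p = 0.259) and Gabpa -0.22, -0.38 and -0.095 (mean -0.23 ± 0.09, adjusted p = 0.294). The mean of all kept Gabpa probes was nearer to 0, at -0.041. Twnk, the helicase of mitochondrial DNA, had -0.22 ± 0.08 (adjusted p = 0.275).

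The authors' deposited table lists 68 member probes of 56 genes among the 40000 probes it holds. The smallest adjusted p of a member there is 0.417, that of a dim Mrpl9 probe, and the smallest of the whole table is 0.264. The authors' deposited table leaves the direction of its ratio unstated; that ratio correlates at -0.802 with Cy5 over Cy3 over the 39915 shared probes, so its signs are turned here. So turned, the authors' deposited table puts 25 of its member probes above and 43 below 0. The authors' deposited table holds only probes with an unadjusted limma p up to 0.537, so member probes with a larger p are absent. These counts therefore do not cover all members, and no share over all its probes stands beside them. In the authors' deposited table the Mrpl12 probe used above is at 0.21, and the 2 Mrps36 probes are at -0.28 and -0.21.

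Brpf1 itself was higher in the channel labelled Brpf1-deficient, with ratios of 2.01, 1.43 and 1.06 (mean 1.499 ± 0.19 SE, limma adjusted p = 0.0404). Brpf1 did not pass when any 1 pair was left out, where 0 of all genes passed. Its single probe checks the labels only if it lies in the disrupted part of the gene, which was not analysed here. All 16 markers of the embryo proper, of heart, somite, neural tube, caudal end and lateral plate, were well above background in both channels on all arrays. So were all 6 markers of primitive red cells, all 7 of visceral endoderm and yolk sac and all 4 of decidua and uterus, and 3 of 4 of trophoblast, the exception being Tpbpa. These lists moved between pairs by more than the members did. Their median ratio in pairs 1, 2 and 3 was -0.31, 0.93 and 0.39 for red cells, 0.20, 0.54 and 0.55 for visceral endoderm, and -0.46, -0.47 and 0.51 for decidua. It was -0.70, -0.73 and -0.36 for trophoblast and 0.13, -0.057 and -0.15 for the embryo proper. The trophoblast medians rest on 3 tested genes, of which 0 had the same sign in all pairs. The median of their gene means was 0.053, with 2 of the 3 above 0. The 1 marker of these lists that passed the threshold was Hbb-bh1, an embryonic globin of red cells, higher in Cy5 (1.28 ± 0.16 SE, limma adjusted p = 0.0418). Mean log2 intensity reached 17.6 among the red cell markers and had a median of 16.2 among those of visceral endoderm. Ratios climbed with brightness above 17 on these arrays, and the part of brightness in the marker ratios was not tested. The part of these lists in the members' ratios was not tested either. In whole embryos fewer cells of a type and less RNA per cell cannot be told apart.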

How the data were processed

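Agilent 2-colour arrays of 3 embryo pairs were analysed. Per the labels, 350 ng of total RNA was amplified once and coupled to Cy dyes. Scanning software was Feature Extraction 10.7.3.1, per the file headers, which gives each spot's intensity as a median brightness on a linear scale with a local background. The log10 values in the files are, per the file headers, ratios of Cy5 over Cy3 from that software's processed signals. The authors' deposited table holds log2 ratios, mean log2 intensities, p-values and the scores t and B; limma is named, without settings, in the submitters' processing notes. Median signals were corrected with normexp (offset 50) and normalized by loess (span 0.3) within each array in limma 3.58.1 (R 4.3.3), where controls and outliers had weight 0. Each probe is the mean of its spots without outliers. A probe was kept (31603 of 55681) if at least 0.5 of its spots were well above background in 1 channel on at least 2 of 3 arrays, and the brightest stood for its gene. Probes were named through RefSeq accessions in the GRCm38.p6 table, which matched all 78 members; 5 of the 105 member probes were named only in the deposited table. The mean log2 ratio was tested against 0 (lmFit, eBayes, two-sided, Benjamini-Hochberg over 23551 genes). The test was checked on simulated data with independent noise, no brightness trend and effects larger than any member's ratio. That check does not cover ratios as small as those of the members. The number of arrays limits the precision. The members and lists were chosen with earlier results of these data known. Named members are those at both ends and the middle of each subunit, stalk proteins, Mrps18 paralogues, Mrps30, Mrps36, the brightest and dimmest, and examples with disagreeing probes; of each related list, up to 3 by smallest p. Background correction, normalization, filter, choice of probe, subunit assignment and omission of each pair were varied.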

Additional observations from a re-analysis of the deposited data

How the results depend on the processing

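Under each of 10 alternatives (no background subtraction, processed signals, a loess span of 0.02, median centring, no filter, a stricter filter, the mean of all probes, and omission of each pair) 0 members and 0 genes of the related lists passed in limma. At an unadjusted p below 0.05 there were 0 to 4 members. All 77 members lay within 0.3 of 0 in the report, 76 with processed signals and without pair 3, and 74 with median centring. Over all genes the calls numbered 326 in the report, 652 with median centring and 201 with the mean of all probes. They numbered 0 with processed signals, with a span of 0.02 and without any 1 pair. There a member's lack of a call does not set it apart from other genes. The median over all members was 0.024 with processed signals, 0.033 with a span of 0.02 and 0.12 with median centring. For the large subunit these medians were 0.030, 0.035 and 0.13, and for the small subunit 0.0047, 0.025 and 0.083. Large minus small was 0.052 with median centring. With 1 pair omitted, the medians ran from -0.047 to -0.0062 (all), -0.047 to -0.0054 (large) and -0.063 to -0.0062 (small).

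Members above 0 numbered 28 of 77 in the report, 51 with a span of 0.02, 44 with processed signals, 60 with median centring and 33 with the mean of all probes; the cause was not tested. Signs that turned are given for the 57 named genes. With a span of 0.02 they were Mrps30 (0.062), Mrps10 (0.025), Mrps18b (0.053), Mrpl11 (0.021), Mrpl53 (0.033), Mrpl15 (0.016), Mrpl4 (0.045), Mrpl41 (0.048), Mrpl43 (0.038), Mrps2 (0.025), Mrps7 (0.037), Chchd1 (-0.025) and Aurkaip1 (0.0073). With processed signals they were Mrpl35 (0.076), Mrps30 (0.043), Mrps10 (0.012), Mrps18b (0.0047), Mrpl53 (0.0053), Mrpl4 (0.056), Mrpl41 (0.024), Mrpl43 (0.033), Mrpl50 (-0.016), Mrps7 (0.084), Chchd1 (-0.021) and Aurkaip1 (0.035). With the mean of all kept probes they were Mrpl4 (0.072), Mrpl41 (0.0012), Mrpl43 (0.073), Mrps2 (0.14), Mrps7 (0.047) and Gfm2 (-0.0026). Median centring, which leaves the brightness trend in, turned the most, with Mrpl52 (0.036), Mrpl13 (0.098), Mrpl32 (0.0072), Mrpl57 (0.15), Mrpl19 (-0.022), Mrps15 (0.097), Mrps30 (0.083), Mrps18b (0.18), Mrpl11 (0.27), Mrpl53 (0.15), Mrpl15 (0.18), Mrpl4 (0.23), Mrpl41 (0.10), Mrpl43 (0.16), Mrps33 (0.14), Mrps7 (0.14), Dap3 (0.14) and Aurkaip1 (0.23). Omission of 1 pair moved Mrpl54 between -0.024 and 0.058, Mrpl19 between -0.049 and 0.078, Mrpl41 between -0.057 and 0.0046, Mrpl11 between -0.11 and 0.012, Mrpl50 between -0.047 and 0.28, Mrps2 between -0.10 and 0.023, Mrpl35 between -0.051 and 0.028, Mrps30 between -0.025 and 0.018, Mrps18b between -0.10 and 0.070, Mrpl4 between -0.073 and 0.028, Mrpl43 between -0.11 and 0.015, and Mrps7 between -0.11 and 0.012. Mrpl12 stayed above and Mrps36 and Mrps14 below 0 under these 10 alternatives, but Mrpl12 and Mrps36 were not always the ends of the range. The highest member was Mrpl9 with processed signals (0.30), a span of 0.02 (0.29), without pair 1 (0.26) and without pair 3 (0.30). The lowest was Mrpl51 with processed signals (-0.18), Mrpl1 with median centring (-0.17) and Mrpl40 without pair 1 (-0.26).

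Brpf1 did not pass with processed signals (limma adjusted p = 0.237), a span of 0.02 (0.273), the mean of all kept probes (0.055) or with 1 pair omitted (0.102 to 0.200). With processed signals, a span of 0.02 or 1 pair omitted, 0 genes passed, so there its lack of a call does not set it apart from other genes. Its mean ratio was 1.56 with processed signals and 1.52 with a span of 0.02. The test is paired by design, because each array holds both RNAs of its pair and the mean log ratio over the arrays was tested against 0. No further pairing between arrays was used, since they form 1 group.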
